A study of Mus musculus with 6 samples.

Results

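The enzymes described here remove methyl and acetyl groups from histones and other proteins: lysine demethylases other than the Kdm6 family, the zinc-dependent histone deacetylases (HDACs) and the sirtuins. They were chosen by symbol as 32 named genes, all of which were found among the 20443 genes in the deposited tables, and comprise 14 demethylases, 11 HDACs and 7 sirtuins. RNA was sequenced from mTECs, epithelial cells of the thymic medulla that show peripheral self-antigens to developing T cells. The cells were sorted by flow cytometry from C57BL/6 mice aged 4 weeks. All mice carried Jmjd3fl/fl alleles. The 3 control libraries (Con_253, Con_261 and Con_264) came from mice with no Cre, and the 3 Jmjd3-deficient libraries (cKO_262, cKO_263 and cKO_265) from mice that also carried Foxn1-cre, whose promoter drives Cre in the epithelium of the whole thymus, cortex included. A difference therefore cannot be told apart from an effect of the Cre construct. The series' title asks about the need for Jmjd3, a demethylase of lysine 27 of histone H3 with the symbol Kdm6b, in the expression of tissue-restricted antigens.

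Histone lysine methylation and acetylation are written by one set of enzymes and removed by another. Kdm1a and Kdm1b remove methyl groups from lysine 4 of histone H3 with a flavin cofactor, whereas the JmjC demethylases use iron and oxoglutarate and differ in the lysine they act on. Class I HDACs work within large corepressor complexes (CoREST, NuRD, SIN3 and NCoR-SMRT), class IIa HDACs shuttle between nucleus and cytoplasm with MEF2 factors and 14-3-3 proteins, and sirtuins consume NAD. In mTECs such enzymes act on the chromatin from which the regulator Aire transcribes tissue-restricted genes, and Sirt1 is known as a deacetylase of Aire itself.

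Values are FPKM (fragments counted per transcript, scaled by its length in kilobases and by the size of the library), summed over the rows of a symbol. FPKM is scaled by transcript length, so levels of different genes can be set side by side, but only roughly. The cDNA was amplified, which can favour transcripts by length and base composition. No counts are given, and the depth behind each value is unknown. The summed FPKM of a library ranged from 461152 to 543156 in the controls and from 582835 to 641060 in the deficient group. These ranges did not overlap, so a difference in scale cannot be told apart from the genotype. The main fit applied no scaling between libraries, and its intervals make no allowance for one. Of 10 mTEC markers chosen for the check, 9 were found in the tables, with Aire between 230.3 and 504.2 FPKM and the epithelial adhesion gene Epcam between 750.5 and 945.3 FPKM over the 6 libraries. Y-linked Kdm5d, a demethylase outside the 32 genes, was seen in Con_253 (1.18 FPKM) but at no more than 0.00938 FPKM elsewhere, and 1 group thus appears to hold both sexes. On the first principal component of all tested genes (42.8% of the variance) the control libraries scored -22.7, -21.1 and -9.87. The deficient ones scored -6.74, 7.42 and 53.0, so the groups did not overlap, and cKO_265 lay farthest out. In sorted cells as in any bulk sample, fewer cells of a type and less RNA per cell cannot be told apart.

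The targeted gene was read first. Kdm6b was at 18.1, 17.1 and 9.998 FPKM in control libraries (in the order given above) versus 11.1, 11.6 and 8.67 FPKM in deficient ones. The groups overlapped through Con_264, and the difference did not pass the test (fitted log2 difference -0.45, SE 0.23, limma adjusted p = 0.418). Which exons were deleted is not stated in the labels and the value covers all of them, so it is no check of the genotype.

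On the log2(FPKM + 1) scale of the fit, Kdm4a had the largest difference between the groups (-1.09), and the other 31 enzymes lay between -0.54 and 0.27. Kdm4a, a JmjC demethylase of lysines 9 and 36 of histone H3, had a mean level of 34.0 FPKM in control and 15.8 FPKM in deficient mTECs, but did not pass the test over all genes. By the ratio of group means Hdac10, a low gene near 0 in 1 library of each group, was lower still (0.416, against 0.465 for Kdm4a). Of the 32 genes, 0 passed the adjusted threshold (limma, Benjamini-Hochberg over 15720 tested genes, adjusted p under 0.05), which 0.0763% of all tested genes did (0.0191% higher and 0.0573% lower). At an unadjusted p under 0.05 there were 2 of the 32 (Kdm4a and Hdac11, both lower in the deficient mice), or 6.25%, against 14.6% of all tested genes (6.81% higher and 7.82% lower). Non-overlapping groups were found for 5 of the 32, or 15.6%, against 21.5% of all tested genes (9.59% higher and 11.9% lower). These 5 were Kdm4a, Hdac11 and Hdac2, lower in the deficient mice, and Kdm3b and Kdm4d, higher there. Of the 32 fitted values 21 were below 0, with a median of -0.11, beside a median of -0.04 over all tested genes, of which 54.7% were below 0 and 45.3% above. All 32 passed the filter on low values (a mean of at least 0.5 FPKM).

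The fit also gave the size of change that each gene's spread leaves possible. The 95% interval of the difference, on the log2(FPKM + 1) scale, lay within 1.5-fold in either direction for 15 of the 32 genes, or 46.9%, against 35.4% of all tested genes. These 15 included both flavin-dependent demethylases, both KDM2 and both KDM5 members, Hdac1, Hdac3 and Sirt7. It lay within 2-fold for 28 of the 32, or 87.5%, against 83.1%, the exceptions being Kdm4a, Hdac6, Hdac10 and Hdac11. The added 1 understates differences of low genes, so the intervals of genes near 1 FPKM (Kdm4d, Phf8 and Hdac10) are narrower than on the scale of the FPKM ratio.

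**Figure D1:**
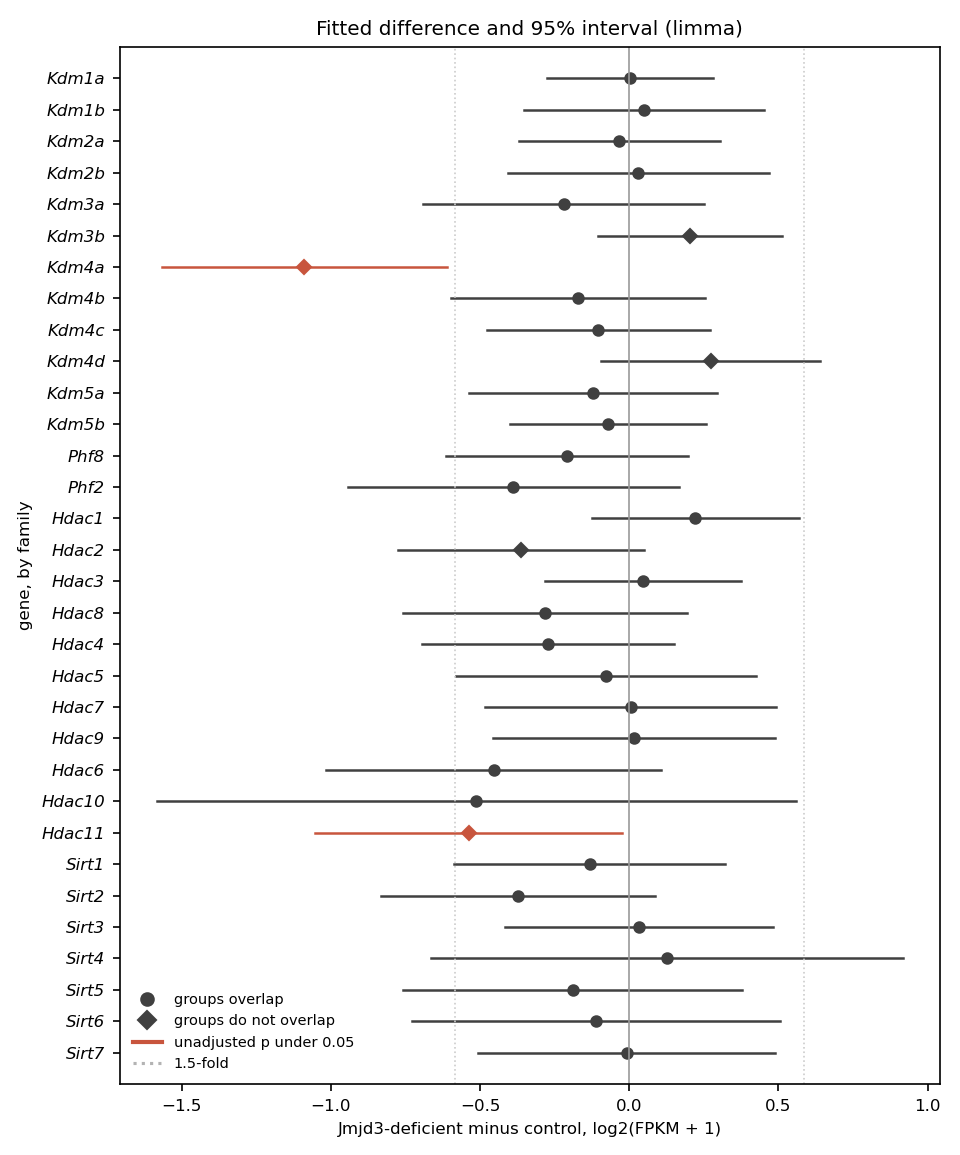
Fitted difference between Jmjd3-deficient and control mTECs for the 32 genes (horizontal axis, log2(FPKM + 1), with the 95% interval from limma), ordered by family on the vertical axis. Diamonds mark genes whose groups did not overlap, red marks an unadjusted p under 0.05, and dotted lines mark 1.5-fold. Kdm4a, at -1.09, lies apart from the other 31, which run from -0.54 (Hdac11) to 0.27 (Kdm4d).

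The sequences just upstream of 3 of these genes are printed to set a gene that differed little beside those that differed most: Kdm4a and Hdac11, the genes with an unadjusted p under 0.05, and Kdm1a, which had the fitted difference nearest to 0. Each is the part of a RefSeq promoter window (GRCm38.p6, the build also called mm10) that lies before the first base of the RefSeq gene, 5′ to 3′ on the gene's strand, with CpG dinucleotides in capitals. Kdm4a is shown at chr4:118180091-118180293 on the minus strand (203 bases), Hdac11 at chr6:91156565-91156669 on the plus strand (105 bases) and Kdm1a at chr4:136602788-136602973 on the minus strand (186 bases).
Kdm4a: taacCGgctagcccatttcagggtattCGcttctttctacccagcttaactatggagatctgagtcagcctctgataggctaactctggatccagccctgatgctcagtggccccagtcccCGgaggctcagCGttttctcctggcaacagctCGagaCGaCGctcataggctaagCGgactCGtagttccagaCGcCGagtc
Hdac11: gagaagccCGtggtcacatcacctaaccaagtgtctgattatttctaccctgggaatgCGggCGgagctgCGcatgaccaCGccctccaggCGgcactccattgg
Kdm1a: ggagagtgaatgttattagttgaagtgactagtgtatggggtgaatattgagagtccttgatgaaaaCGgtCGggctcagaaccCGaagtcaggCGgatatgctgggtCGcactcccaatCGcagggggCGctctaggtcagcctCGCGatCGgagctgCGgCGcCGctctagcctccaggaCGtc
These stretches differ in length and hold 11 CpGs in Kdm4a, 6 in Hdac11 and 14 in Kdm1a. The CCAAT box (CCAAT on either strand) is in those of Hdac11 and Kdm1a, and the GC box (GGGCGG on either strand) in that of Hdac11 alone. The whole window of Kdm4a, which runs into the gene, also holds CCAAT, so the printed stretches do not set Kdm4a apart by this motif.

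Promoter windows of 300 bases (250 before and 50 after a transcript start, which can lie inside the gene) were matched in RefSeq for 25 of the 32 genes. For 23 of these the window's start lay within 200 bases of the start in the deposited tables, the exceptions being Hdac4 and Sirt5. The median window held 20 CpGs, from 0 in Kdm4c and Hdac9 to 63 in Phf2, beside a median of 7 in the 32851 windows of all annotated genes, non-coding ones included. GGGCGG was found in 16 of the 25 (64%), against 35.7% of all windows. CCAAT was in 12 (48%, against 37.4%), the ETS core CCGGAAG in 4 (16%, against 8.86%) and TATAAA in 2 (8%, against 13.6%), each on either strand. The E-box CACGTG was in 2 (8%, against 7.15%), the CRE TGACGTCA in 1 (4%, against 1.79%) and the NRF1 motif in 1 (4%, against 0.971%). A match describes the letters and not a bound factor.

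Kdm1a and Kdm1b, the flavin-dependent demethylases of lysine 4 of histone H3, did not pass the test. Kdm1a, the catalytic subunit of the CoREST complex, was at 62.0, 56.8 and 61.2 FPKM in control libraries versus 60.3, 60.5 and 59.4 FPKM in deficient ones. It had the smallest SE of the 32 genes, and the interval of its log2 difference ran from -0.28 to 0.28. Kdm1b, known for its role in oocytes, was at 8.41, 10.6 and 12.5 FPKM in control libraries versus 11.3, 9.90 and 11.1 FPKM in deficient ones, where all 3 values lay within the control range. Its interval ran from -0.35 to 0.45. In the GENCODE M21 annotation Kdm1b shares 9.19% of its exonic bases with Dek on the opposite strand, and the strand setting is not stated.

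The KDM2 members act mainly on lysine 36 of histone H3. Kdm2a was at 8.23, 8.04 and 9.17 FPKM in control libraries versus 8.40, 7.84 and 8.52 FPKM in deficient ones. Kdm2b, which also recruits a variant Polycomb complex to CpG islands, was at 22.4, 27.7 and 25.5 FPKM in control libraries versus 23.2, 33.8 and 21.5 FPKM in deficient ones, with cKO_263 the highest and cKO_265 the lowest of all 6. Neither differed by more than the spread between libraries (fitted log2 differences -0.03, SE 0.15, and 0.03, SE 0.19, limma adjusted p = 0.940 and 0.960). Exons of Kdm2b share 8.74% of their bases with other genes in the GENCODE M21 annotation, and with strand not stated those reads cannot be told apart.

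Among the KDM3 enzymes, which remove methyl groups from lysine 9 of histone H3, the members pointed in different directions. Kdm3b was at 22.5, 22.5 and 21.5 FPKM in control libraries versus 23.3, 27.1 and 26.8 FPKM in deficient ones, without overlap. The step between the highest control and cKO_262 was small, and the difference did not pass (fitted log2 difference 0.20, SE 0.14, limma adjusted p = 0.528). An unstranded protocol would also place reads of the antisense gene Gm26538 there, which shares 24.6% of the exonic bases of Kdm3b. Kdm3a, known for its role in spermatogenesis and in the response to low oxygen, was at 4.86, 5.74 and 7.49 FPKM in control libraries versus 4.80, 4.13 and 6.12 FPKM in deficient ones, with overlap (fitted log2 difference -0.22, SE 0.21, from -0.35 without cKO_265 to -0.075 without Con_264). Within a library the log2 ratio of Kdm3a to Kdm3b (of FPKM + 1, as for all ratios here) averaged -1.74 ± 0.305 in the controls and -2.16 ± 0.259 in the deficient mice (SD, n = 3 each, exact permutation p = 0.2, adjusted p = 0.667 over 10 ratios), and the difference of -0.42 was -0.26 without Con_264.

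The largest fitted difference was in the KDM4 family, whose members act on lysines 9 and 36 of histone H3. Kdm4a (chromosome 4 from 118137004 to 118180043, mm10, minus strand) had control levels of 30.2, 37.1 and 34.6 FPKM and deficient levels of 20.7, 15.1 and 11.6 FPKM. All 3 deficient libraries lay below all 3 controls, and the spread within the deficient group was wide, with cKO_262 highest and cKO_265 lowest. The means were 34.0 ± 3.52 and 15.8 ± 4.60 FPKM (SD, n = 3 each), a ratio of 0.465. The log2 fold change was -1.09 (SE 0.21, 95% interval -1.57 to -0.61), with an unadjusted p of 0.00066 and an adjusted p of 0.118 (limma). By its p it ranked at 84 of the 15720 tested genes, of which 12 passed. The difference stayed between -1.29 and -0.90 in the 15 alternative fits, with an unadjusted p under 0.05 in each. Its adjusted p ranged from 0.00336 with limma's library weights to 0.452 without Con_261. No exonic base of Kdm4a is shared with another annotated gene.

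Markers of other cells moved alongside. Of all tested genes 54.7% were lower in the deficient mice, and 0.0573% passed the adjusted threshold as lower. All 8 markers of tuft-like mTECs, chemosensory epithelial cells of the medulla, were lower in the deficient mice, 3 of them past the adjusted threshold (Rgs13, Avil and Plcb2), and their summed level was 126.9 to 155.4 FPKM in control and 40.2 to 56.2 FPKM in deficient libraries. Thymocyte markers summed to 43.7 to 71.5 and 30.6 to 40.0 FPKM, and 8 of the 9 tested were lower, with Rag2 under 0.5 FPKM in every library. Markers of dendritic cells and macrophages summed to 353.6 to 400.3 and 274.9 to 307.1 FPKM, with 7 of 8 tested lower. Lyz2 alone made up most of that sum, at 324.2 to 362.2 and 241.7 to 275.1 FPKM. The sum therefore says little about the other markers, of which Cd68 averaged 19.3 and 18.7 FPKM and Flt3 was higher in the deficient mice. Endothelial markers summed to 7.76 to 7.86 and 5.38 to 5.70 FPKM, with 4 of 4 tested lower. Of the 6 listed, those left untested by the filter had group means that went in both directions. Summed levels overlapped between groups for the B cell markers (38.8 to 51.7 and 40.8 to 56.0 FPKM), the fibroblast markers (32.8 to 40.5 and 29.7 to 35.9 FPKM) and the cortical epithelial markers (320.5 to 410.5 and 356.2 to 534.4 FPKM). The part of these cells in the values of Kdm4a, Hdac11 and Hdac2 was not tested.

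The other KDM4 members were lower in level than Kdm4a, and none of them had an unadjusted p under 0.05. Kdm4d, a member without the PHD and Tudor domains of its relatives and best known from testis, was at 1.19, 1.10 and 0.994 FPKM in control libraries versus 1.52, 1.68 and 1.40 FPKM in deficient ones. Its groups did not overlap and the direction was opposite to that of Kdm4a, but the difference did not pass (fitted log2 difference 0.27, SE 0.16, limma adjusted p = 0.475). Kdm4b, a target of hypoxia and hormone signalling in other tissues, averaged 8.93 ± 1.08 and 7.88 ± 1.61 FPKM, and Kdm4c ranged from 1.97 to 2.44 FPKM and from 1.81 to 2.07 FPKM. Their groups overlapped. The log2 ratio of Kdm4a to Kdm4c within a library was 3.29, 3.68 and 3.37 in the controls and 2.82, 2.52 and 2.05 in the deficient mice. These values did not overlap, and the exact permutation p of 0.1 is the smallest that 3 against 3 libraries can give (adjusted p = 0.667 over 10 ratios). Since Kdm4a was the most abundant of the 4, the summed level of the family was 41.7, 50.4 and 46.5 FPKM in the controls and 33.7, 26.7 and 21.2 FPKM in the deficient mice.

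**Figure D2:**
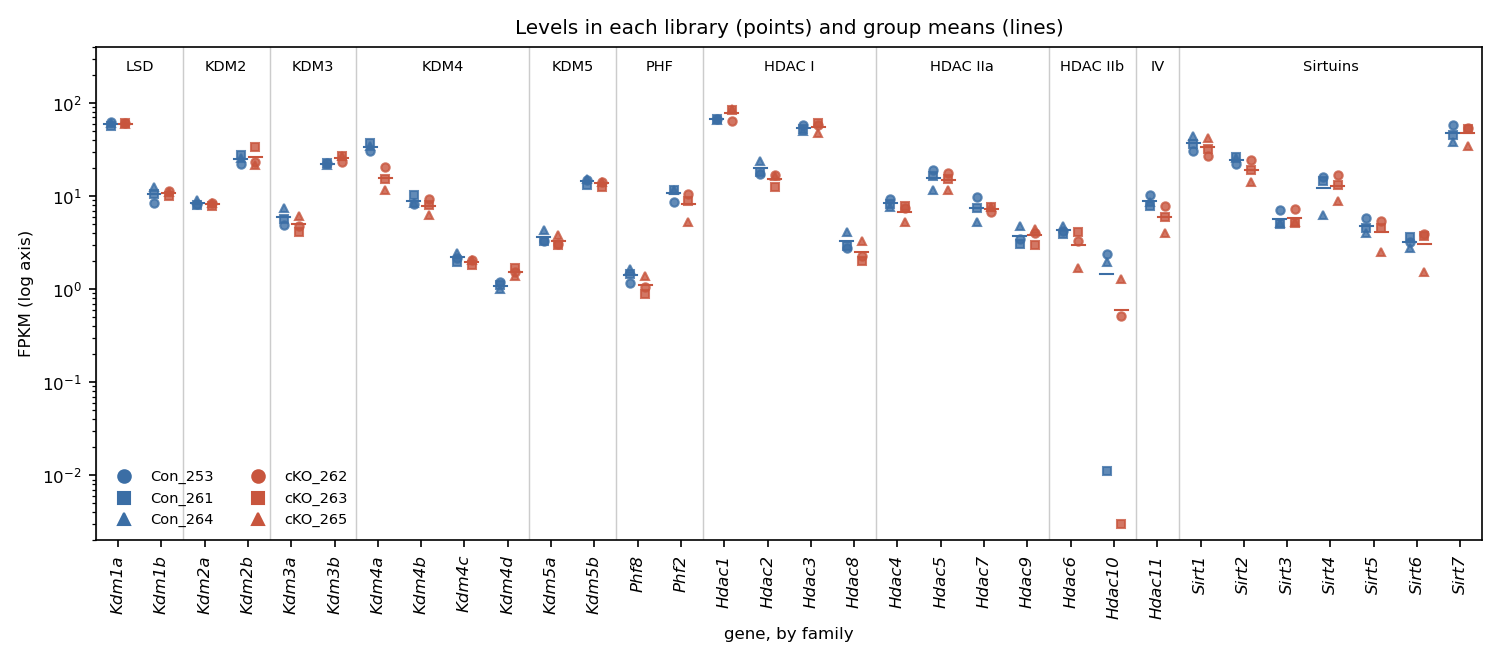
FPKM (vertical log axis) of each of the 32 genes in the 6 libraries, with blue for control and red for Jmjd3-deficient, symbols for libraries and short lines for group means. Kdm4a is the gene whose red points all lie well below the blue ones, and Hdac10 is the gene with the widest scatter in both groups, from 0.00301 to 2.36 FPKM.

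The KDM5 and PHF demethylases overlapped between groups. Kdm5a, which removes methyl groups from lysine 4 of histone H3, was at 3.33, 3.28 and 4.37 FPKM in control libraries versus 3.02, 2.96 and 3.85 FPKM in deficient ones. Kdm5b, its paralogue of the same activity, was at 14.8, 13.2 and 15.4 FPKM and at 14.2, 12.7 and 14.3 FPKM, so it was the higher of the pair in every library. The log2 ratio of Kdm5a to Kdm5b averaged -1.74 and -1.79, a difference within the spread (exact permutation p = 0.7). Phf2, which acts on lysine 9 of histone H3, was at 8.68, 11.6 and 11.7 FPKM in control libraries versus 10.4, 8.76 and 5.23 FPKM in deficient ones, where cKO_265 was lowest. Its log2 fold change of -0.39 (SE 0.24, limma adjusted p = 0.505) was -0.14 without cKO_265. Phf8, an X-linked demethylase with a related fold, was at 1.18, 1.47 and 1.65 FPKM in control libraries versus 1.04, 0.891 and 1.38 FPKM in deficient ones (fitted log2 difference -0.21, SE 0.18). Its difference was -0.29 without Con_253, where Kdm5d was seen, and -0.14 without cKO_263.

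Class I HDACs form the catalytic core of the nuclear corepressor complexes and included the most abundant of the 32 genes. Hdac1 was at 67.9, 66.9 and 65.6 FPKM in control libraries versus 64.3, 85.0 and 86.8 FPKM in deficient ones. The controls were close together, and cKO_262 lay just below them while the other two deficient libraries lay above (fitted log2 difference 0.22, SE 0.15, limma adjusted p = 0.541, from 0.14 without cKO_265 to 0.36 without cKO_262). Hdac2, which takes the same place in these complexes, was at 17.4, 18.3 and 23.9 FPKM in control libraries versus 16.7, 12.5 and 16.4 FPKM in deficient ones. Its groups did not overlap, though Con_253 and cKO_262 nearly met, and the difference did not pass (fitted log2 difference -0.36, SE 0.18, limma adjusted p = 0.398, and -0.23 without Con_264). The log2 ratio of Hdac1 to Hdac2 was 1.91, 1.81 and 1.42 in the controls and 1.89, 2.67 and 2.34 in the deficient mice, overlapping through cKO_262 (difference 0.58, exact permutation p = 0.2, adjusted p = 0.667 over 10 ratios). Hdac3, the deacetylase of the NCoR-SMRT complex, averaged 53.7 ± 3.96 and 55.6 ± 6.61 FPKM, with an interval of the log2 difference from -0.28 to 0.37. Hdac8, an X-linked class I enzyme that acts on cohesin, was the lowest at 2.75, 2.94 and 4.11 FPKM in control libraries versus 2.26, 2.03 and 3.26 FPKM in deficient ones (fitted log2 difference -0.28, SE 0.21). Its difference was -0.37 without Con_253, -0.14 without Con_264 and -0.43 without cKO_265.

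The class IIa members, which have weak catalytic activity of their own and bind MEF2 factors, overlapped between groups. Hdac5 was the highest at 18.9, 16.6 and 11.5 FPKM in control libraries versus 17.5, 15.1 and 11.6 FPKM in deficient ones. In each group 1 library (Con_264 and cKO_265) was low, so the spread within a group was wider than the difference between the means of 15.7 and 14.7 FPKM. Hdac9 was the lowest at 3.42, 3.06 and 4.76 FPKM and at 3.99, 2.95 and 4.42 FPKM. Hdac7, which is abundant in thymocytes and endothelium, averaged 7.50 ± 2.23 and 7.33 ± 0.498 FPKM, with an interval of the log2 difference from -0.48 to 0.49. The part of thymocytes and endothelial cells in its level was not tested. Hdac4 averaged 8.37 ± 0.803 and 6.83 ± 1.38 FPKM (fitted log2 difference -0.27, SE 0.19, limma adjusted p = 0.535, and -0.12 without cKO_265), and it shares 22.4% of its exonic bases with Gm26720 on the opposite strand.

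Class IIb and class IV had the lowest fitted values after Kdm4a. Hdac11, the lone class IV enzyme, known as an eraser of fatty acyl groups, was at 10.2, 7.76 and 8.56 FPKM in control libraries versus 7.74, 5.94 and 4.03 FPKM in deficient ones. Con_261 and cKO_262 nearly met, at 7.757 and 7.744 FPKM, so the absence of overlap rests on that step. The log2 fold change of -0.54 (SE 0.23, 95% interval -1.05 to -0.02) had an unadjusted p of 0.0421 and an adjusted p of 0.321 (limma), and it was -0.33 without cKO_265. In 7 of the 15 alternative fits the unadjusted p of Hdac11 was under 0.05. Hdac6, an X-linked cytoplasmic deacetylase of tubulin, was at 4.26, 3.95 and 4.76 FPKM in control libraries versus 3.26, 4.08 and 1.69 FPKM in deficient ones. The groups overlapped through cKO_263, and the fitted log2 difference was -0.46 (SE 0.25, limma adjusted p = 0.437). It was also -0.46 without Con_253, where Kdm5d was seen, and -0.19 without cKO_265. Hdac10, a polyamine deacetylase, was at 2.36, 0.0110 and 1.96 FPKM in control libraries versus 0.509, 0.00301 and 1.29 FPKM in deficient ones. It was near 0 in Con_261 and cKO_263, 1 library of each group, and its SE of 0.47 was the largest of the 32. Its log2 fold change of -0.51 (limma adjusted p = 0.659) was -0.90 with a pseudocount of 0.1, -1.06 without Con_261 and -0.19 without Con_253.

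Sirtuins differ in their place in the cell: Sirt1, Sirt6 and Sirt7 are nuclear, Sirt2 is mostly cytoplasmic, and Sirt3, Sirt4 and Sirt5 are mitochondrial. Of the 7 genes 0 passed the adjusted threshold and 0 had an unadjusted p under 0.05 (limma). Sirt7, the nucleolar sirtuin, had the highest level at 57.4, 45.7 and 38.1 FPKM in control libraries versus 54.3, 52.5 and 34.4 FPKM in deficient ones. Group means were nearly equal, at 47.1 ± 9.69 and 47.1 ± 11.0 FPKM. Sirt6, which acts on lysine 9 of histone H3 and in DNA repair, had the lowest level at 3.18, 3.65 and 2.78 FPKM in control libraries versus 3.87, 3.75 and 1.52 FPKM in deficient ones. Both were lowest in Con_264 among the controls and in cKO_265 among the deficient libraries. Sirt1 averaged 36.8 ± 6.50 and 33.7 ± 7.64 FPKM (fitted log2 difference -0.13, SE 0.20, limma adjusted p = 0.805). Sirt2 averaged 24.6 ± 2.35 and 19.2 ± 5.13 FPKM (fitted log2 difference -0.37, SE 0.20, limma adjusted p = 0.437), and its difference was -0.18 without cKO_265.

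The mitochondrial members overlapped between groups. Sirt3, the main mitochondrial deacetylase, averaged 5.72 ± 1.14 and 5.88 ± 1.15 FPKM and shares 12.7% of its exonic bases with the opposite-strand genes Psmd13 and Ric8a. Sirt5, which removes succinyl and malonyl groups, averaged 4.74 ± 0.919 and 4.15 ± 1.46 FPKM. Sirt4 had the widest interval of the 7, from -0.67 to 0.92 on the log2 scale, with 6.24 FPKM in Con_264 and 8.76 FPKM in cKO_265 against 13.1 to 17.0 FPKM in the other 4 libraries.

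Levels spanned a wide range in the order of their means over the 6 libraries. Hdac1 (72.8 FPKM), Kdm1a (60.0), Hdac3 (54.6), Sirt7 (47.1) and Sirt1 (35.2) led, and Kdm4c (2.08), Kdm4d (1.31), Phf8 (1.27) and Hdac10 (1.02) came last. Kdm1a and Hdac3, next to each other in this order, were at 56.8 to 62.0 and at 48.1 to 60.4 FPKM, so their ranges overlapped. The median of the 32 means was 8.39 FPKM, beside 6.74 FPKM for all tested genes. Summed over members, the demethylases were at 208.8 ± 9.67 and 189.4 ± 8.72 FPKM in the control and deficient groups, the HDACs at 193.5 ± 9.09 and 194.2 ± 8.02 FPKM and the sirtuins at 134.4 ± 8.23 and 125.9 ± 15.6 FPKM (SD, n = 3 each). The difference in the demethylase sum was close to that of Kdm4a alone.

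The order of libraries within the groups was compared with that in all tested genes. In 8 of the 32 genes (Hdac3, Hdac4, Hdac5, Kdm4d, Sirt4, Sirt5, Sirt6 and Sirt7) Con_264 was the lowest control and cKO_265 the lowest deficient library, a share of 25%, which is near the 23.5% of all tested genes. cKO_265 was the lowest of its group in 16 of the 32 (50%, against 41.6% of all tested genes). cKO_262 was the lowest of its group in 4 of the 32 (12.5%, against 32.5%).

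**Figure D3:**
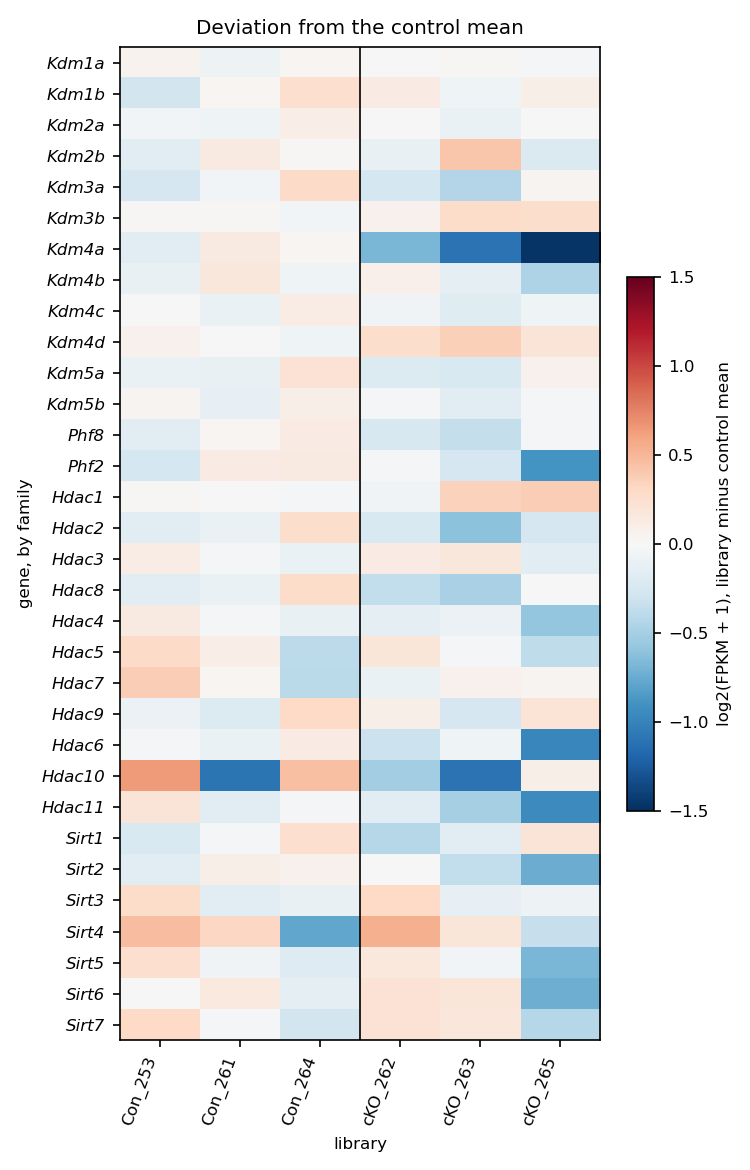
Deviation of each library from the control mean (colour, log2(FPKM + 1)) for the 32 genes (rows, by family) in the 6 libraries (columns, with a line between control and deficient). Kdm4a is blue in all 3 deficient libraries (-0.68, -1.11 and -1.47), while Hdac10 is blue in Con_261 and cKO_263 and the blue cells of Phf2, Hdac6, Hdac11, Sirt2, Sirt5 and Sirt6 are darkest in cKO_265.

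The tables list 11 of the 32 genes in several rows at 1 locus, 30 rows in all, with no label that says which transcripts a row covers. In some genes nearly all of the level moved between rows from library to library while the sum stayed near. Hdac5 (chromosome 11 from 102195747 to 102230172, mm10) had a first row at 18.3, 0.266 and 11.1 FPKM in control libraries versus 16.9, 0.109 and 11.00 FPKM in deficient ones. Its second row was at 0.671, 16.4 and 0.421 FPKM and at 0.664, 15.0 and 0.560 FPKM. Con_261 and cKO_263, 1 library of each group, thus had the level in the other row, and these are also the libraries with Hdac10 near 0.

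Kdm4c, which recognises lysine 9 of histone H3 in its methylated state, had a first row at 1.96, 0.725 and 0.00425 FPKM in control libraries versus 2.06, 1.80 and 2.04 FPKM in deficient ones. The second row was at 0.219, 1.24 and 2.43 FPKM in control libraries versus 0.00207, 0.00671 and 0.000842 FPKM in deficient ones, without overlap. The sum of the rows overlapped between groups. When the row with the highest mean was used in place of the sum, the log2 fold change of Kdm4c turned from -0.10 to 0.78 (limma adjusted p = 0.385).

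Of the 30 rows, 4 had groups that did not overlap, or 13.3%, near the 13.2% of the 7182 rows of all symbols listed this way: the main row of Kdm4a, the second rows of Kdm4c and Sirt2 (lower in the deficient mice) and the first row of Sirt3 (higher there). The second row of Sirt2 was at 5.79, 9.56 and 4.88 FPKM in control libraries versus 3.04, 4.74 and 2.45 FPKM in deficient ones, while its first row overlapped (14.5 ± 2.83 and 14.2 ± 3.60 FPKM). The first row of Sirt3 was at 2.12, 3.88 and 4.22 FPKM in control libraries versus 5.81, 5.09 and 4.25 FPKM in deficient ones, and its second row was highest in Con_253 at 4.92 FPKM. The main row of Kdm4a held 99.2% of that gene's level. Rows were not tested.

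**Figure D4:**
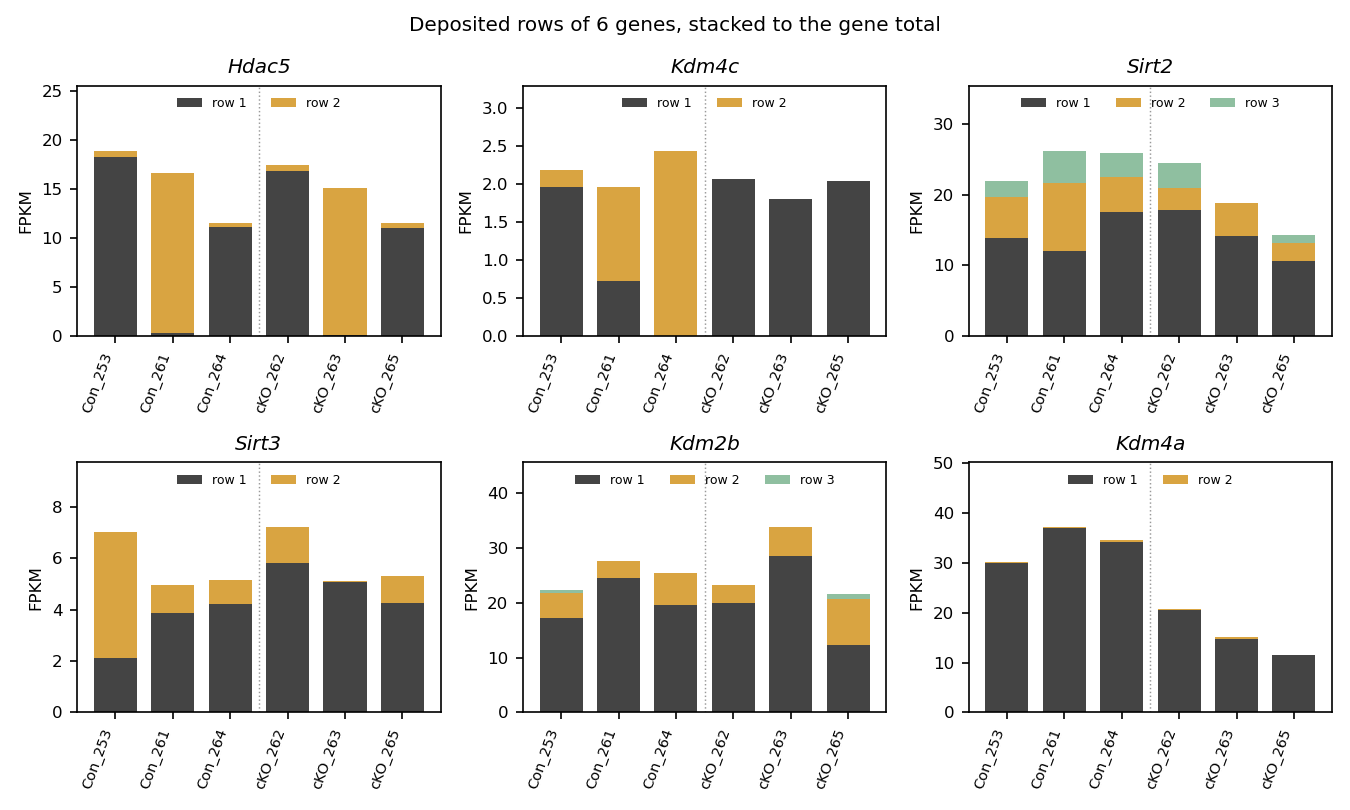
FPKM of the deposited rows of 6 genes, stacked to the gene total, in the 6 libraries (controls left of the dotted line). Hdac5 has its level in row 2 in Con_261 and cKO_263 and in row 1 elsewhere, Kdm4c has row 2 almost only in the controls, and Kdm4a consists almost wholly of row 1.

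The enzymes' partners and counterparts were read from 9 lists written from general knowledge, of which 105 genes were tested. Of these, 0 passed the adjusted threshold (limma), and 15 had an unadjusted p under 0.05, 5 higher and 10 lower, or 14.3%, against 14.6% of all tested genes. The corepressor complexes that hold class I HDACs and Kdm1a had medians near 0: 0.02 for CoREST (9 tested), -0.06 for NuRD (12), 0.05 for NCoR-SMRT and MiDAC (8) and 0.14 for SIN3 (12, of which 10 were above 0). Over all tested genes 45.3% were above 0. The SIN3 genes summed to 268.1 to 311.8 FPKM in control and 345.7 to 383.2 FPKM in deficient libraries. The ING reader Ing1 of the SIN3 complex was at 95.5, 90.1 and 69.3 FPKM in control libraries versus 113.4, 136.1 and 135.7 FPKM in deficient ones (fitted log2 difference 0.60, SE 0.16, limma adjusted p = 0.174). Rcor2, a CoREST scaffold that pairs with Kdm1a, was at 7.60, 4.08 and 3.42 FPKM and at 2.70, 2.53 and 1.67 FPKM (fitted log2 difference -0.82, SE 0.27, limma adjusted p = 0.228). Its paralogue Rcor1 averaged 34.2 ± 1.75 and 37.1 ± 5.11 FPKM, with overlap. The NuRD helicase Chd3 averaged 27.3 ± 3.16 and 35.0 ± 2.14 FPKM (fitted log2 difference 0.35, limma adjusted p = 0.303).

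Partners of the class IIa enzymes had a median of -0.24, with 8 of 10 below 0, against 54.7% of all tested genes. At an unadjusted p under 0.05 (limma) there were 3 of 10, against 14.6% of all tested genes. These were the MEF2 factors Mef2b and Mef2a and the 14-3-3 gene Ywhaz, with log2 fold changes of -0.89 (SE 0.28), -0.50 (SE 0.18) and -0.37 (SE 0.14) and limma adjusted p of 0.212, 0.252 and 0.281. Among the acetyltransferases that oppose the deacetylases, 2 of 11 had an unadjusted p under 0.05, beside the same 14.6% of all tested genes. Ep300 was at 8.54, 8.40 and 12.0 FPKM in control libraries versus 6.15, 5.52 and 7.29 FPKM in deficient ones, and its paralogue Crebbp at 11.1, 9.94 and 11.8 FPKM and at 7.96, 6.60 and 8.37 FPKM. Neither pair of groups overlapped, and neither difference passed (fitted log2 differences -0.53, SE 0.19, and -0.47, SE 0.16, limma adjusted p = 0.252 and 0.240).

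Other JmjC proteins held both directions, with 2 higher and 2 lower of 14 at an unadjusted p under 0.05. Over all tested genes the shares were 6.81% higher and 7.82% lower. Kdm8, a JmjC hydroxylase, was at 19.8, 19.9 and 15.9 FPKM in control libraries versus 28.6, 28.2 and 35.7 FPKM in deficient ones (fitted log2 difference 0.71, SE 0.16, limma adjusted p = 0.132). Riox1, a ribosomal oxygenase listed under an older symbol, averaged 11.3 ± 2.35 and 19.5 ± 7.34 FPKM. Jmjd6, a lysyl hydroxylase, was at 25.3, 24.0 and 19.6 FPKM and at 14.9, 14.0 and 16.6 FPKM (fitted log2 difference -0.56, SE 0.16, limma adjusted p = 0.177), and Jmjd8 averaged 18.7 ± 1.53 and 12.6 ± 4.79 FPKM. The methyltransferases of lysines 4, 9 and 36 had a median of -0.0037 over 17 genes, with Smyd2 at 0.43 and Kmt2d (listed as Mll2) at -0.59 at an unadjusted p under 0.05. NAD salvage and synthesis genes, which supply the sirtuins' cofactor, had a median of -0.03 over 12 genes. Of these the riboside kinase gene Nmrk1 was at 19.4, 22.3 and 20.3 FPKM in control libraries versus 12.8, 13.0 and 19.2 FPKM in deficient ones (limma adjusted p = 0.296), and Nampt, the rate-limiting enzyme of salvage, averaged 40.2 ± 6.78 and 36.5 ± 6.45 FPKM.

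**Figure D5:**
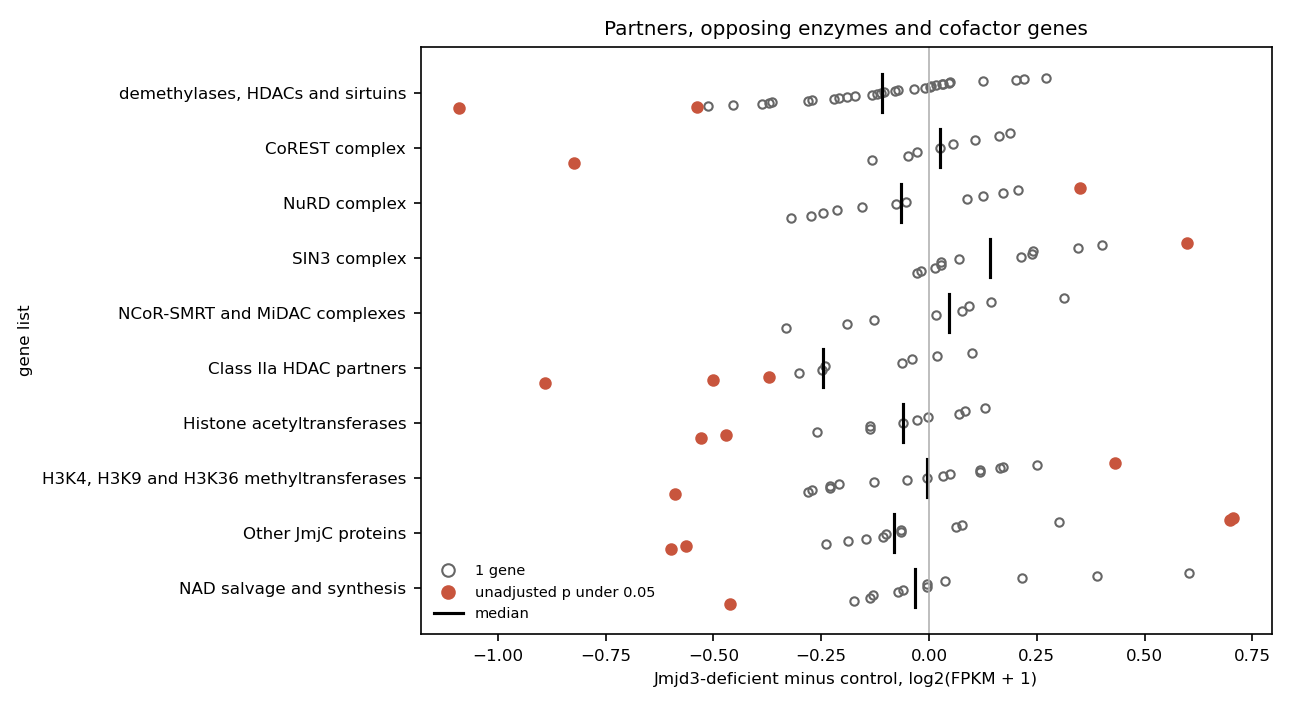
Fitted difference between Jmjd3-deficient and control mTECs (horizontal axis, log2(FPKM + 1)) for the 32 enzymes and the tested genes of 9 lists (vertical axis). Each circle is 1 gene, red circles have an unadjusted p under 0.05 and black lines are medians, which lie between -0.24 for the class IIa partners and 0.14 for SIN3.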

How the data were processed

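The authors deposited 1 table per library with a gene, a locus, a status and an expression column. The file headers name no unit, and the values were read as FPKM because the submitters' processing notes name Cufflinks, together with Bowtie2 2.2.5 and mm10. The version of Cufflinks, the annotation, the strand setting and any scaling between libraries are not given in the sources used here. Per the labels' protocols, a single-cell kit amplified the whole transcriptome as cDNA, which can favour transcripts by length and base composition.

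Rows of a symbol were summed after 44 rows of 25 symbols turned into dates were left out. A filter kept genes whose mean over the 6 libraries reached 0.5 FPKM. limma 3.58.1 (R 4.3.3) was fitted to log2 values with a pseudocount of 1, with eBayes following the trend of variance on mean level. Tests were 2-sided, p-values were adjusted over all tested genes by Benjamini-Hochberg, and calls needed an adjusted value under 0.05. A negative fold change means a lower level in deficient mice, and intervals use the moderated variance. A 2-sided exact permutation test compared the ratios of 10 pairs of related genes. Its smallest possible p with 3 against 3 libraries is 0.1, so no ratio could pass 0.05, and a larger p is no sign of equal ratios. The fit was also run on simulated data. There every gene had the same spread and no library stood apart. The run therefore does not show how the fit performs on these libraries. Libraries were taken as separate mice by their numbers, which the labels do not state, so p-values measure the spread between these libraries. Starts were raised by 1 base, since 7845 of 16055 single-row symbols began 1 base before the RefSeq start.

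The 32 genes and all lists were chosen with earlier results of these data known. All 32 are named, with values in every library for those with an unadjusted p under 0.05, with groups that do not overlap, or with the highest or lowest mean of a family. In each list up to 4 genes with the smallest p could be named. The other genes named (Aire, Epcam, Kdm5c, Kdm5d, Kdm6a, Rcor1, Nampt, Nnt, Rgs13, Avil, Plcb2, Lyz2, Cd68 and Flt3) were chosen after their values were seen. Ccl21a, Sap18 and Nadk2 were not analysed here. The alternatives changed 1 choice each: the pseudocount (0.1), the filter (none, or 5 FPKM), the scaling (quantile normalization or median centring), library weights (arrayWeights), the highest row of a symbol in place of the sum, the trend (none), and the libraries (each left out, or Con_253 with cKO_265).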

Additional observations from a re-analysis of the deposited data

How the results depend on the processing

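Of 470 refits of the 32 genes, 417 kept their direction and their side of the threshold, and 16 genes kept their direction in every alternative run. With limma's library weights 3025 of all tested genes passed, with 14 of the partner genes and 2 of the 32 (Kdm4a and Hdac2, log2 fold changes -1.17 and -0.42, adjusted p = 0.00336 and 0.0452). These weights ran from 0.263 to 8.72, with Con_261 the highest, so that 1 control library dominated. In every other alternative 0 of the 32 and 0 of the partner genes passed. Leaving out each library gave 2 to 23 genes in all, with 2 without any 1 of the controls, 23 without cKO_262 and 19 without cKO_265.

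Reversals were in 16 genes whose fitted differences ran from -0.19 (Sirt5) to 0.13 (Sirt4) and in 6 ratios, and their cause was not tested. Quantile normalization gave -0.12 for Kdm1a, 0.017 for Kdm2a, -0.018 for Kdm2b, 0.013 for Kdm4c, -0.064 for Hdac3 and 0.00055 for Sirt6. Median centring, which moved the median of all tested genes from -0.04 to 0.05, gave 0.047 for Kdm2a, 0.0098 for Kdm5b, 0.0029 for Hdac5 and 0.072 for Sirt7. Library weights gave -0.026 for Kdm1b, -0.0078 for Hdac7, -0.068 for Sirt4 and 0.14 for Sirt7. The highest row gave -0.067 for Kdm2b, 0.78 for Kdm4c, -0.0038 for Hdac7 and 0.034 for the log2 ratio of Kdm2a to Kdm2b. Without both Con_253 and cKO_265 the values were -0.11 for Kdm1b, 0.22 for Hdac5, -0.12 for Hdac9, 0.18 for Sirt5, 0.20 for Sirt6, 0.35 for Sirt7, 0.14 for the ratio of Kdm1a to Kdm1b and -0.11 for that of Phf8 to Phf2.

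Leaving out each library gave ranges across 0 for 14 genes: Kdm1a -0.036 to 0.026, Kdm1b -0.088 to 0.17, Kdm2a -0.067 to 0.018, Kdm2b -0.16 to 0.15, Hdac3 -0.016 to 0.15, Hdac5 -0.27 to 0.075, Hdac7 -0.20 to 0.19, Hdac9 -0.089 to 0.16, Sirt1 -0.30 to 0.012, Sirt3 -0.10 to 0.17, Sirt4 -0.26 to 0.36, Sirt5 -0.36 to 0.060, Sirt6 -0.28 to 0.20 and Sirt7 -0.15 to 0.20. The ratios did so for Kdm1a to Kdm1b (-0.16 to 0.11), Kdm2a to Kdm2b (-0.21 to 0.16), Kdm5a to Kdm5b (-0.12 to 0.017), Phf8 to Phf2 (-0.17 to 0.38), Hdac6 to Hdac10 (-0.43 to 0.62) and Sirt6 to Sirt7 (-0.25 to 0.0013).

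The number of counts behind an FPKM value is unknown, and no counting interval is given. No paired analysis was possible because the groups share no replicate numbers.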

Other observations

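Among genes of the cofactor supply, Nnt, a mitochondrial transhydrogenase that couples NADH to NADPH, was under 0.5 FPKM in every library, with 0.0877 to 0.199 FPKM among control libraries, 0.183 FPKM in cKO_263 and 0.192 FPKM in cKO_265, whereas cKO_262 lists it at 0. X-linked Kdm5c, the relative of Kdm5a and Kdm5b, was at 8.84 FPKM in Con_253 and at 10.8 to 12.5 FPKM in the other 5 libraries. X-linked Kdm6a was likewise lowest in Con_253, at 8.05 FPKM against 12.4 to 21.7 FPKM.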
